A study of Homo sapiens with 9 samples.

Results

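Expression of the Notch receptors, ligands and targets was described in human hepatoma Huh-7 cells and in 2 clones derived from them. The 10 genes were taken by symbol from the 58735 genes of the count and FPKM tables: the receptors NOTCH1, NOTCH2, NOTCH3 and NOTCH4, the ligands JAG1, JAG2, DLL1 and DLL4, and the targets HES1 and HEY1. They were chosen by family membership in view of earlier levels and fold changes of these same libraries, and which of those values led to the choice was not stated, so every level and fold change of theirs counts as used and is a description, given with standard errors and intervals and without p-values. mRNA was measured by RNA-Seq in 9 libraries, 3 for each of 3 groups. The control was Huh-7, a line of hepatocyte origin with the genotype WT. Ako-3 is 1 clone with an APOB knock out made in Huh-7 by CRISPR/Cas9, and Mko-3 is 1 clone that carries a knock out of MTTP in Huh-7 and was made earlier. All cells were grown in DMEM with fetal bovine serum and kept overnight in serum free medium before RNA was taken, so every group shared serum withdrawal. Each knockout is a single clone and the control libraries serve both comparisons, so the effect of a lost gene and the difference between clones cannot be told apart, and the spread given is that between cultures of the same cells.

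Notch receptors are single-pass membrane proteins that are activated by ligands of the Jagged and Delta-like families on a neighbouring cell. Binding and pulling by the ligand exposes the receptor to ADAM proteases and then to gamma-secretase, which release the intracellular domain. This domain enters the nucleus, joins the DNA-binding protein RBPJ and its Mastermind coactivators, and switches on genes of the HES and HEY families, which are transcriptional repressors. In liver the pathway is known for bile duct formation, and loss of JAG1 or NOTCH2 function causes Alagille syndrome, in which bile ducts are too few.

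The sequence upstream of 3 members is shown because they carried the main differences below: the leading target, the leading ligand and the receptor with the lowest level in Mko-3 relative to control. Each line holds the 250 bases before the RefSeq transcription start in GRCh38.p14, read 5′ to 3′ on the strand of the gene, with every copy of TGGGAA, the core recognised by RBPJ, in capitals. The windows are chr3:194135898-194136147 on the plus strand for HES1, chr20:10674000-10674249 on the minus strand for JAG1 and chr19:15200996-15201245 on the minus strand for NOTCH3.
HES1: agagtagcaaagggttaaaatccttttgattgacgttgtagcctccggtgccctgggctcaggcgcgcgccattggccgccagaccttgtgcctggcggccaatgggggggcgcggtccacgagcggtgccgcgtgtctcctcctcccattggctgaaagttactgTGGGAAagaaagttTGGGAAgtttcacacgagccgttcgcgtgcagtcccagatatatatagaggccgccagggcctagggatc
JAG1: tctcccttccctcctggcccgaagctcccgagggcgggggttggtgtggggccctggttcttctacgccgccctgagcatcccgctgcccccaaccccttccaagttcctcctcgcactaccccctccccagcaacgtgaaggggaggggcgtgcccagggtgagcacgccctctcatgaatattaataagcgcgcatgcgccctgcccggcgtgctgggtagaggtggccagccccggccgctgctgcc
NOTCH3: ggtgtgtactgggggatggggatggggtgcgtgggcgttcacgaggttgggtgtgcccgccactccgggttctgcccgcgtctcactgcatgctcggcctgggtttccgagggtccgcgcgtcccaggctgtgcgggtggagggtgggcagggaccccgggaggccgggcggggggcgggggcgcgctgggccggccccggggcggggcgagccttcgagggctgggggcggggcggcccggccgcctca

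The HES1 window held 2 copies of TGGGAA, from -84 to -79 and from -70 to -65 counted from the start, both on the strand of the gene. The first of them was part of the longer GTGGGAA. Both strands were searched in the 8 members that matched the RefSeq table (the promoters of HEY1 and DLL1 were not analysed here), and HES1 was the 1 member with this core. Over the first listed promoter of 27305 genes, 21.1% held TGGGAA at least once and 2.92% held 2 or more copies, while 5.46% held GTGGGAA. The N box CACNAG, to which HES proteins bind, was found in 3 members: 3 times in HES1, once in NOTCH3 and once in NOTCH4, against 32% of all these promoters with at least 1 copy. A match of this kind describes the letters and not occupancy by a factor.

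Library totals ranged from 14638727 to 20179760 counts with a median of 17694709. The FPKM scale of the deposited table follows 1 size factor per library, so FPKM can be compared between libraries, and because it is divided by gene length it is the scale used here to compare genes. The knocked out genes followed the labels. APOB was at 179, 235 and 258 FPKM in Huh-7, 94.6, 83.6 and 84.5 FPKM in Ako-3, and 208, 227 and 218 FPKM in Mko-3. MTTP was at 116, 111 and 121 FPKM in Huh-7, 110, 105 and 99.3 FPKM in Ako-3, and 16.0, 16.6 and 15.3 FPKM in Mko-3. All 10 hepatocyte markers examined exceeded 1 FPKM in each group. With 3 libraries against 3 the smallest p of an exact permutation test is 0.1, so no permutation test was used. Each gene was instead tested in edgeR's quasi-likelihood model, fitted over all genes for each pair of groups, which also gave the fold changes. A gene is called where its log2 fold change is at least 1 in size and its Benjamini-Hochberg adjusted p is at most 0.05.

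NOTCH2 and NOTCH1 made up most of the receptor mRNA, and NOTCH3 separated the groups most widely. NOTCH2 (chr1:119911553-120069626, minus strand), the receptor linked to bile duct formation, was at 8.11, 9.29 and 10.0 FPKM in Huh-7, 8.07, 7.20 and 7.55 FPKM in Ako-3, and 10.2, 10.1 and 10.1 FPKM in Mko-3. The Ako-3 libraries were all below and the Mko-3 libraries all above those of Huh-7, although the nearest libraries were close in both cases. The log2 fold change of NOTCH2 was -0.27 (SE 0.08) in Ako-3 and 0.14 (SE 0.07, 95% CI -0.0061 to 0.28) in Mko-3, both relative to Huh-7. NOTCH1 (chr9:136494433-136545786, minus strand), the receptor best known from T cell development, was at 7.04, 6.31 and 6.86 FPKM in Huh-7, 6.71, 6.47 and 6.95 FPKM in Ako-3, and 8.96, 8.35 and 9.02 FPKM in Mko-3. The Huh-7 and Ako-3 libraries overlapped fully and the 3 Mko-3 libraries were higher than all others. Its log2 fold change was -0.01 (SE 0.07) in Ako-3 and 0.37 (SE 0.07, 95% CI 0.22 to 0.51) in Mko-3.

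NOTCH3 (chr19:15159038-15200981, minus strand), a receptor best known from vascular smooth muscle and pericytes, was at 1.34, 0.844 and 1.2 FPKM in Huh-7, 1.87, 1.47 and 1.35 FPKM in Ako-3, and 0.108, 0.144 and 0.221 FPKM in Mko-3. These levels rest on 121 to 237 counts per library in Huh-7, 221 to 291 in Ako-3 and 18 to 32 in Mko-3. No group overlapped another, and the Ako-3 and Huh-7 libraries lay next to each other while the Mko-3 libraries stood far below both. NOTCH3 was called lower in Mko-3, with a log2 fold change of -2.87 (SE 0.23, 95% CI -3.36 to -2.39), or 7.33-fold lower than Huh-7. In Ako-3 its log2 fold change was 0.45 (SE 0.16, 95% CI 0.12 to 0.79), which did not reach the fold threshold. NOTCH4 (chr6:32194843-32224067, minus strand), known mainly from endothelium, had 2 to 3 counts in Huh-7, 1 to 5 in Ako-3 and 4 to 10 in Mko-3 and was too low to be tested. GPSM3, which the annotation places on the same strand over part of NOTCH4, had 0 to 11 counts.

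The make-up of receptor mRNA therefore differed in its NOTCH3 share. Summed receptor FPKM was 17.0 ± 0.920 (SD, n = 3) in Huh-7, 15.9 ± 0.746 in Ako-3 and 19.1 ± 0.410 in Mko-3. NOTCH3 supplied 5.12 to 8.13% of this sum in the Huh-7 libraries, 8.49 to 11.2% in Ako-3 and 0.557 to 1.14% in Mko-3. NOTCH2 supplied 49.1 to 56.5% in Huh-7, 47.5 to 48.4% in Ako-3 and 52.2 to 54.1% in Mko-3, and NOTCH1 supplied 37.9 to 42.7%, 40.3 to 43.8% and 44.8 to 46.4%. NOTCH4 did not exceed 0.310% in any library. As whole cultures were sequenced, fewer cells with a transcript and less of it per cell cannot be told apart.

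**Figure D1:**
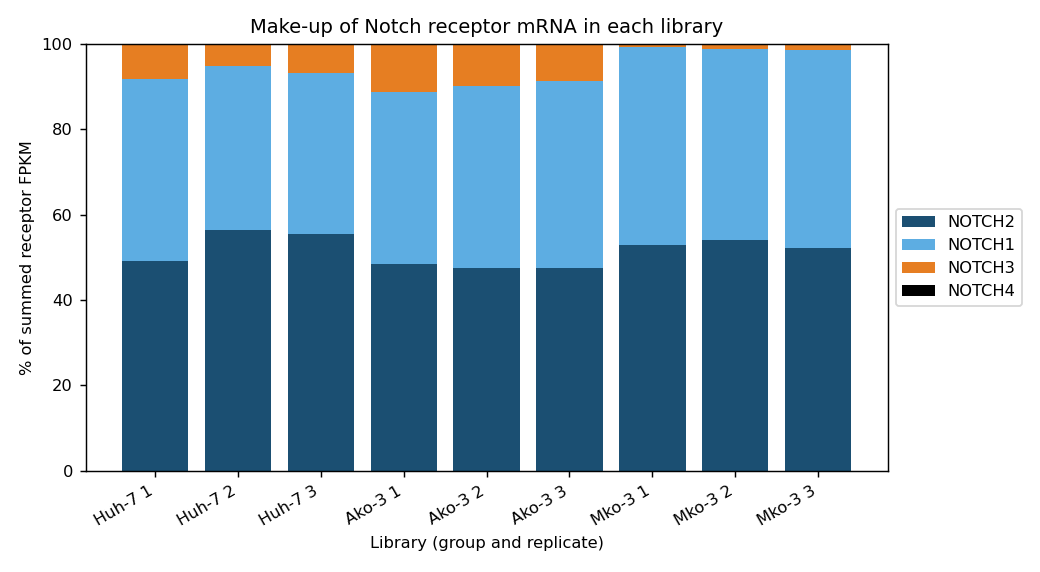
Share of the summed FPKM of NOTCH1 to NOTCH4 (y axis, %) in each of the 9 libraries (x axis), as stacked bars. NOTCH2 and NOTCH1 fill most of every bar, NOTCH3 takes 5.12 to 8.13% in Huh-7, 8.49 to 11.2% in Ako-3 and at most 1.14% in Mko-3, and NOTCH4 is too small to be seen.

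JAG1 was the main ligand in every library and was lower in Ako-3. JAG1 (chr20:10637684-10673999, minus strand), the Jagged ligand that is mutated in most Alagille syndrome, was at 95.5, 99.8 and 94.9 FPKM in Huh-7, 52.2, 48.1 and 49.0 FPKM in Ako-3, and 89.2, 89.1 and 91.8 FPKM in Mko-3. The Ako-3 libraries were far below all others, and the Mko-3 libraries lay just under those of Huh-7 without overlap. The Ako-3 mean was 0.515 of the Huh-7 mean, and the log2 fold change was -0.96 (SE 0.06, 95% CI -1.08 to -0.84). JAG1 was not called because this estimate fell just short of the fold threshold, which the interval spans. In Mko-3 the log2 fold change was -0.12 (SE 0.05, 95% CI -0.23 to -0.0027). In control cells JAG1 ranked 315 of all genes by mean FPKM and stood above 97.5% of the 12692 genes with a mean over 1 FPKM.

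DLL4 (chr15:40929333-40939073, plus strand), the Delta-like ligand known from sprouting vessels, was the second ligand by level, at 2.03, 0.908 and 1.27 FPKM in Huh-7, 0.507, 0.864 and 0.686 FPKM in Ako-3, and 1.21, 1.15 and 0.982 FPKM in Mko-3. The highest Ako-3 library lay just under the lowest Huh-7 library, while the Mko-3 libraries fell inside the wide range of Huh-7. DLL4 was called lower in Ako-3, at a log2 fold change of -1.04 (SE 0.28, 95% CI -1.63 to -0.44). This call rested on single libraries: the log2 fold change was -0.67 without replicate 1 of Huh-7 and -0.86 without replicate 1 of Ako-3, and the call was lost in both cases. In Mko-3 the log2 fold change was -0.35 (SE 0.23, 95% CI -0.85 to 0.14).

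The other ligands were near the limit of detection. JAG2 (chr14:105140981-105168824, minus strand), the second Jagged ligand, had 24, 4 and 22 counts in Huh-7, 3, 3 and 5 counts in Ako-3, and 2, 8 and 2 counts in Mko-3. Replicate 2 of Huh-7 lay with the knockout libraries and the other control libraries lay above them. DLL1 (chr6:170282206-170306565, minus strand), a Delta-like ligand, had 3 to 4 counts in Huh-7, 1 to 3 in Ako-3 and 0 to 1 in Mko-3. DLL1 overlaps FAM120B on the opposite strand, which had 294 to 662 counts, and the strand setting of the counting was not stated, so its few reads are uncertain. Neither ligand passed the filter on low counts. Summed over all 4 ligands, FPKM was 98.3 ± 2.28 (SD, n = 3) in Huh-7, 50.5 ± 1.93 in Ako-3 and 91.2 ± 1.40 in Mko-3, and JAG1 supplied 97.7 to 99.0% of it in every library.

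HES1 was lower in both clones, and most so in Ako-3. HES1 (chr3:194136145-194138732, plus strand), the repressor that is the classical direct target of Notch and also represses itself, was at 34.9, 34.7 and 29.1 FPKM in Huh-7, 17.3, 18.2 and 17.5 FPKM in Ako-3, and 22.8, 23.8 and 22.6 FPKM in Mko-3. No group overlapped another, with Huh-7 highest, Mko-3 between and Ako-3 lowest. The log2 fold change was -0.90 (SE 0.08, 95% CI -1.07 to -0.73) in Ako-3 and -0.52 (SE 0.08, 95% CI -0.69 to -0.36) in Mko-3, and neither reached the fold threshold. HEY1, the target of the related HEY family, was at 5.91, 5.25 and 6.42 FPKM in Huh-7, 5.60, 6.19 and 5.39 FPKM in Ako-3, and 6.06, 6.62 and 6.79 FPKM in Mko-3. The 3 groups overlapped, with log2 fold changes of -0.04 (SE 0.11, 95% CI -0.26 to 0.19) in Ako-3 and 0.13 (SE 0.10, 95% CI -0.08 to 0.35) in Mko-3.

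The targets thus did not keep one ratio to each other or to the ligand. In FPKM, HES1 exceeded HEY1 by a ratio of 5.68 ± 1.06 (SD, n = 3) in Huh-7, 3.09 ± 0.157 in Ako-3 and 3.56 ± 0.223 in Mko-3. The ratio of HES1 to JAG1 was 0.340 ± 0.0302 in Huh-7 and 0.356 ± 0.0227 in Ako-3, whose libraries overlapped, and 0.256 ± 0.0105 in Mko-3, whose libraries were all lower. JAG1 exceeded NOTCH2 by a ratio of 10.7 ± 1.15 in Huh-7, 6.54 ± 0.120 in Ako-3 and 8.87 ± 0.164 in Mko-3.

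**Figure D2:**
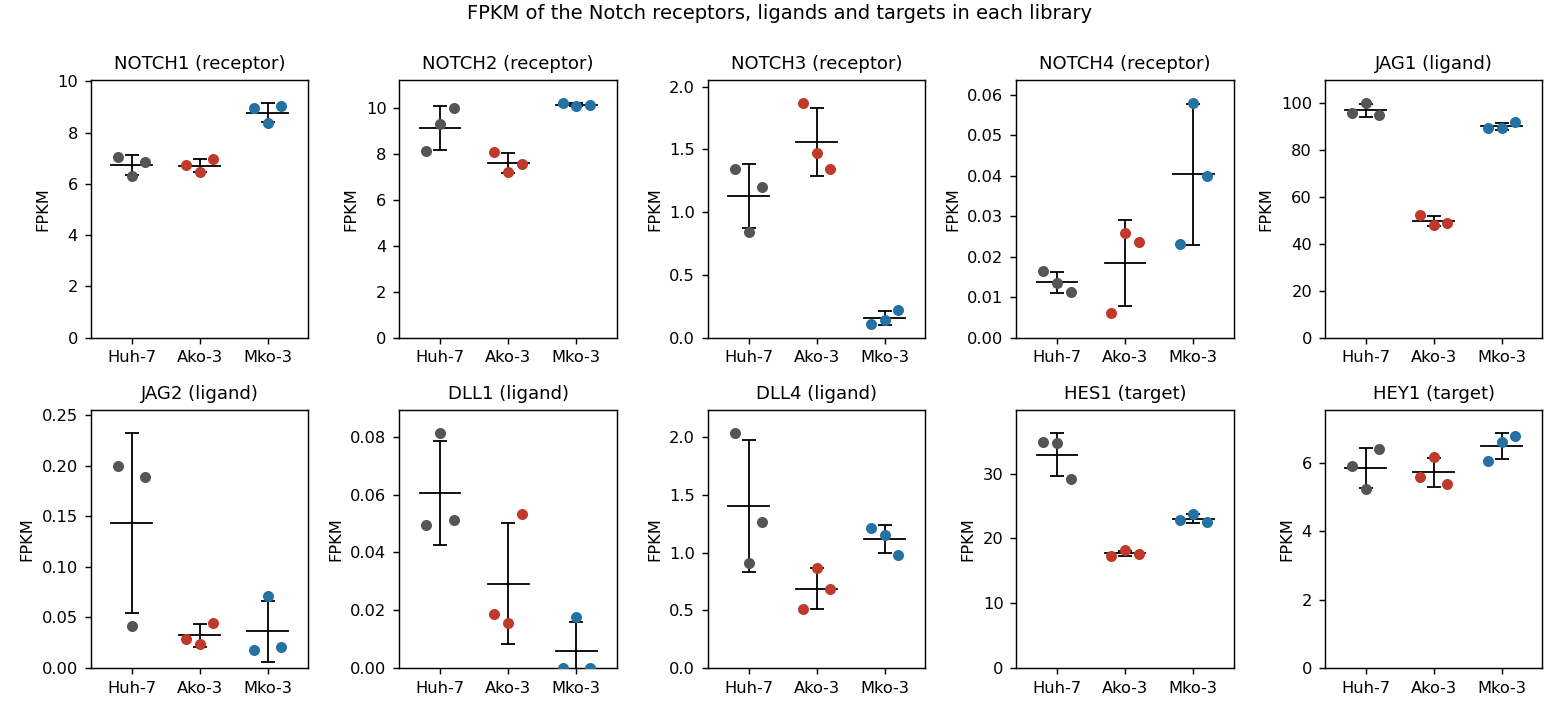
FPKM of the 10 genes (y axes, each from 0 with its own range) in Huh-7, Ako-3 and Mko-3 (x axes). Points are libraries, and black lines show the mean ± SD of 3 libraries. JAG1 lies at 48.1 to 52.2 FPKM in Ako-3 against 94.9 to 99.8 FPKM in Huh-7, and NOTCH3 lies at 0.108 to 0.221 FPKM in Mko-3 against 0.844 to 1.34 FPKM in Huh-7.

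Ordered by level in Huh-7, the members ran JAG1, HES1, NOTCH2, NOTCH1, HEY1, DLL4, NOTCH3, JAG2, DLL1 and NOTCH4. Of the neighbours in this order, NOTCH1 and HEY1, DLL4 and NOTCH3, and JAG2 and DLL1 overlapped between libraries, and the other neighbours did not. The first 5 places were the same in both clones. In Ako-3 NOTCH3 stood above DLL4 without overlap, and in Mko-3 DLL4 stood above NOTCH3 without overlap, at 0.982 to 1.21 FPKM against 0.108 to 0.221 FPKM.

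Of the 10 members, 7 passed the filter on low counts in each comparison, and 3 (NOTCH4, JAG2 and DLL1) were not tested. In Ako-3 relative to Huh-7, 1 of the 7 was called, DLL4, where 8.52% of the 15787 genes tested were called, 3.52% of them higher in Ako-3 and 5.00% lower. In Mko-3 relative to Huh-7, 1 of the 7 was called, NOTCH3, where 11.0% of 15745 genes were called, 3.82% higher and 7.22% lower. By the adjusted p alone, 5 members differed in Ako-3 (NOTCH2, NOTCH3, JAG1, DLL4 and HES1) beside 49.9% of all genes (25.5% higher, 24.4% lower), with NOTCH3 the 1 member that was higher. By the same measure 3 members differed in Mko-3 (NOTCH1 higher, NOTCH3 and HES1 lower) beside 54.0% of all genes (26.9% higher, 27.1% lower). The FPKM of 5 of the 7 did not overlap between Ako-3 and Huh-7, beside 57.6% of all genes tested, and likewise 5 of the 7 between Mko-3 and Huh-7, beside 60.7%. The median log2 fold change of the 7 was -0.27 in Ako-3 and -0.12 in Mko-3, with -0.01 over all genes in both. As the choice of members may have used these contrasts, nothing is read from these shares.

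The clones were also compared with each other, without the control libraries, and the values of the members remain a description. NOTCH3 was called lower in Mko-3 than in Ako-3, with a log2 fold change of -3.33 (SE 0.18, 95% CI -3.69 to -2.97), or 10.1-fold. It was the 1 member called, where 5.73% of the 15528 genes tested were called, 2.26% higher in Mko-3 and 3.47% lower. JAG1 was higher in Mko-3 than in Ako-3 by a log2 fold change of 0.85 (SE 0.04, 95% CI 0.77 to 0.92), DLL4 by 0.68 (SE 0.19, 95% CI 0.31 to 1.06), NOTCH2 by 0.41 (SE 0.05), NOTCH1 by 0.38 (SE 0.05) and HES1 by 0.38 (SE 0.07, 95% CI 0.24 to 0.51). For HEY1 the value was 0.17 (SE 0.09, 95% CI -0.01 to 0.35). By the adjusted p alone, 6 of the 7 differed between the clones, 5 higher and 1 lower in Mko-3. Of all genes, 41.6% differed by this measure (21.1% higher, 20.6% lower). The FPKM of 6 of the 7 did not overlap, beside 49.8% of all genes tested. As the choice of members may have used these values, nothing is read from these shares.

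**Figure D3:**
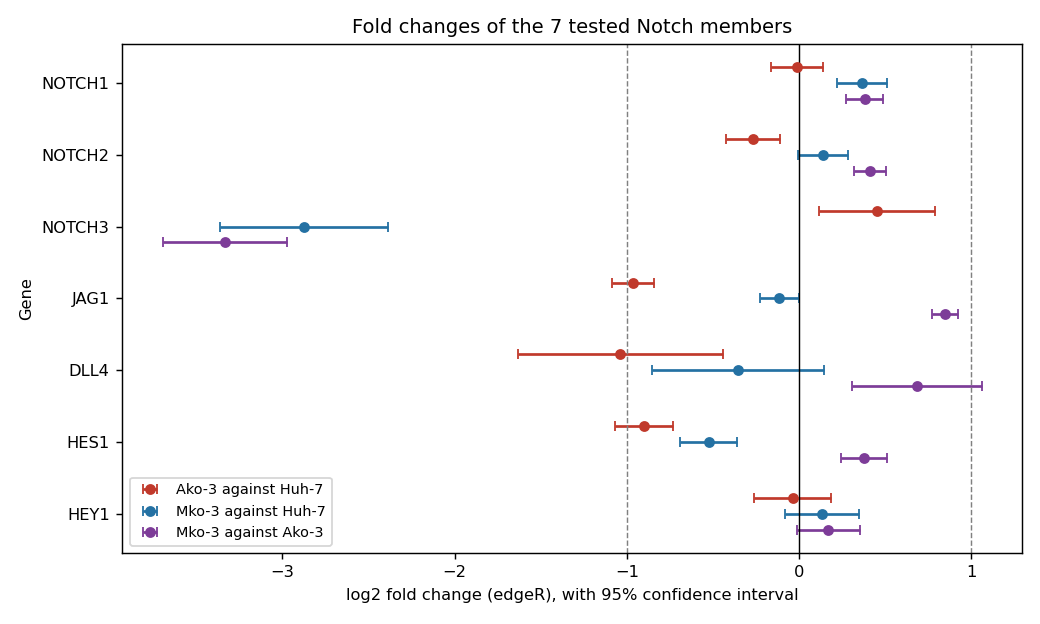
Log2 fold changes from edgeR (x axis) of the 7 tested members (y axis), with bars for the 95% confidence interval. Red compares Ako-3 with Huh-7, blue Mko-3 with Huh-7 and purple Mko-3 with Ako-3, and dashed lines mark a log2 fold change of 1 in either direction. NOTCH3 stands apart at -2.87 and -3.33, JAG1 and HES1 in Ako-3 lie at -0.96 and -0.90, and NOTCH1 in Ako-3 and HEY1 in each comparison lie near 0.

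Near-identical and overlapping genes could share reads with the members. NOTCH2NLA, a partial copy of NOTCH2, had 8 to 19 counts per library, far below the 2215 counts or more of NOTCH2, and NOTCH2P1, its pseudogene, had 0 in every library. Antisense genes over JAG1 had at most 3 counts and those over NOTCH1 at most 5.

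The rest of the pathway was described with 9 lists holding 86 other genes, all found in the files, 1 of them by an older symbol. Across the lists, 0 genes were called higher and 4 lower of 72 tested in Ako-3 relative to Huh-7, or 5.56% beside 8.52% of all genes. In Mko-3, 1 was called higher and 3 lower of 73 tested, or 5.48% beside 11.0%. Between the clones, 4 were called higher in Mko-3 and 0 lower of 71 tested, or 5.63% beside 5.73%. Where edgeR gave 0, an unadjusted p under 0.05 gave 14 higher in Ako-3 and 18 lower between the clones, and DESeq2 called 0 and 1. The adjusted p alone passed 41.7% of the tested pathway genes in Ako-3, 46.6% in Mko-3 and 50.7% between the clones. Of all genes it passed 49.9%, 54.0% and 41.6%, and an unadjusted p under 0.05 passes at least as many. Nothing is therefore read from the unadjusted counts, here or below. The median log2 fold change of the tested pathway genes was -0.02 in Ako-3, -0.05 in Mko-3 and 0.01 between the clones. Values named adjusted p in what follows were computed by edgeR (quasi-likelihood, Benjamini-Hochberg over all genes tested). The lists, too, were drawn up with earlier results of these data known, so these values are given as a description.

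Among other ligands, 1 of 3 tested genes was called in Ako-3, beside 8.52% of all genes, and 2 of 4 in Mko-3, beside 11.0%. Nothing is read from counts this small. DLL3, a Delta-like ligand that acts within the cell as an inhibitor of the pathway, had 14, 18 and 20 counts in Huh-7, 1, 8 and 3 in Ako-3, and 7, 5 and 1 in Mko-3. All knockout libraries were below all control libraries, and DLL3 fell in both clones, with log2 fold changes of -2.15 (SE 0.52, adjusted p = 0.0019) and -1.96 (SE 0.51, adjusted p = 0.0025). Without replicate 2 of Ako-3 the former was -3.01. DLL3 passed the filter on low counts only in comparisons with Huh-7, where it was high, so nothing is read from its calls. CNTN1, a contactin and non-canonical ligand, had 6, 4 and 9 counts in Huh-7, 4, 4 and 6 in Ako-3, and 24, 14 and 17 in Mko-3. It rose in Mko-3, at 1.54 (SE 0.44, adjusted p = 0.0054), and was higher than in Ako-3 by 2.02 (SE 0.48, adjusted p = 0.00037). CNTN1 passed the filter on low counts only in comparisons with Mko-3, where it was high, so nothing is read from its calls. MFAP2, a microfibril protein and the most abundant gene of the list, was at 15.3 ± 1.63 FPKM (SD, n = 3) in Huh-7, 17.9 ± 0.605 in Ako-3 and 15.0 ± 0.471 in Mko-3 and was not called, nor was DLK2, a ligand-like protein that lacks the receptor-binding domain, at 1.73, 1.58 and 1.33 FPKM.

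Other members of the target family divided by clone. HES4, a HES repressor, was the most abundant of them, at 92.3, 94.7 and 69.8 FPKM in Huh-7, 48.5, 55.4 and 51.0 FPKM in Ako-3, and 87.4, 81.2 and 86.2 FPKM in Mko-3. The Ako-3 libraries lay below all others, at -0.73 on the log2 scale (SE 0.10, adjusted p = 1.1e-05) relative to Huh-7, while that of Mko-3 was -0.02 (SE 0.09, adjusted p = 0.86). Between the clones HES4 differed by 0.71 (SE 0.06, adjusted p = 4.2e-18). NRARP, a target whose product damps the pathway by destabilising the receptor's intracellular domain, was at 2.01, 1.26 and 2.17 FPKM in Huh-7, 1.19, 0.992 and 0.874 FPKM in Ako-3, and 4.25, 3.16 and 2.82 FPKM in Mko-3. Its groups did not overlap, with Mko-3 highest and Ako-3 lowest. NRARP had log2 fold changes of -0.85 (SE 0.26, adjusted p = 0.0091) in Ako-3 and 0.89 (SE 0.21, adjusted p = 0.0013) in Mko-3, which missed the fold threshold, and was called between the clones, at 1.74 (SE 0.21, adjusted p = 4.7e-11). Both of the 2 genes tested from this list of 6 were thus below control in Ako-3.

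HES2, a HES repressor from a related list, had 17, 16 and 19 counts in Huh-7, 7, 2 and 6 in Ako-3, and 1, 5 and 1 in Mko-3, and fell in both clones, with log2 fold changes of -1.81 (SE 0.48, adjusted p = 0.0038) and -2.81 (SE 0.56, adjusted p = 0.00023). Without replicate 2 of Mko-3 the latter was -3.90. HES2, too, passed the filter on low counts only in comparisons with Huh-7, where it was high, and nothing is read from its calls. BHLHE41, a repressor of the circadian clock, had 20, 9 and 17 counts in Huh-7, 12, 9 and 3 in Ako-3, and 16, 32 and 30 in Mko-3. It was called between the clones, at 1.76 (SE 0.41, adjusted p = 0.0003), and in neither clone relative to Huh-7. Its paralogue BHLHE40 was far more abundant, at 84.4 ± 3.09 FPKM (SD, n = 3) in Huh-7, 69.9 ± 3.13 in Ako-3 and 62.5 ± 0.728 in Mko-3, without a call. HES6, which opposes HES1, was at 23.1 ± 5.63, 20.3 ± 2.69 and 18.8 ± 0.596 FPKM and was not called.

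In the list of ubiquitin ligases and endocytic adaptors that act on ligands, 0 of 8 tested genes were called by edgeR in Ako-3 (3 at an unadjusted p under 0.05) and 1 in Mko-3. The shares of all genes called were 8.52% and 11.0%. MIB1, the ligase that ubiquitinates Jagged and Delta-like ligands for endocytosis, was at 15.0, 15.4 and 16.3 FPKM in Huh-7, 10.3, 8.93 and 8.92 FPKM in Ako-3, and 10.5, 10.5 and 9.36 FPKM in Mko-3. The libraries of both clones lay below those of Huh-7, with log2 fold changes of -0.74 (SE 0.07, adjusted p = 3.7e-08) and -0.63 (SE 0.07, adjusted p = 8.6e-08), short of the fold threshold. EPN3, an epsin, had 44, 21 and 42 counts in Huh-7 and 18, 14 and 16 in Mko-3, and fell there by 1.11 on the log2 scale (SE 0.33, adjusted p = 0.0066), a call that was lost without replicate 1 of Huh-7 or replicate 2 of Mko-3, where the log2 fold change was -0.98 in each. Its log2 fold change in Ako-3 was -0.93 (SE 0.32, adjusted p = 0.022). DNM2, the dynamin that pinches off endocytic vesicles, was at 30.2, 28.7 and 28.6 FPKM on average in Huh-7, Ako-3 and Mko-3.

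Among enzymes that modify the receptors, 1 of 10 was called by edgeR in Ako-3, beside 8.52% of all genes. In Mko-3, 0 were called, beside 11.0%, and 6 had an unadjusted p under 0.05. The adjusted p alone passed 50% of the 10 in Mko-3, beside 54.0% of all genes. LFNG, the Fringe glycosyltransferase that favours Delta-like over Jagged ligands, was at 1.09, 1.13 and 0.851 FPKM in Huh-7, 0.265, 0.279 and 0.587 FPKM in Ako-3, and 1.12, 1.04 and 0.950 FPKM in Mko-3. The Ako-3 libraries were all below the others, and LFNG fell in Ako-3 at -1.44 on the log2 scale (SE 0.29, adjusted p = 0.00031). In Mko-3 the value was 0.01 (SE 0.20, 95% CI -0.41 to 0.43), and between the clones 1.46 (SE 0.26, adjusted p = 3.0e-06). FURIN, the protease that cuts receptor precursors, was at 124 ± 6.81 FPKM (SD, n = 3) in Huh-7, 153 ± 0.430 in Ako-3 and 186 ± 7.56 in Mko-3, with log2 fold changes of 0.30 and 0.58 that were not called. POFUT1, the fucosyltransferase on which Fringe enzymes build, was at 51.4, 58.8 and 55.9 FPKM on average.

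None of the 7 tested genes for ADAM and gamma-secretase cleavage and none of the 9 tested genes of the RBPJ complex was called by edgeR in any of the 3 comparisons. An unadjusted p under 0.05 was reached by 3 and 2 of them in Ako-3, 3 and 3 in Mko-3, and 5 and 2 between the clones. The shares of all genes called were 8.52% in Ako-3, 11.0% in Mko-3 and 5.73% between the clones. APH1A and NCSTN, both gamma-secretase subunits, averaged 46.0 and 25.4 FPKM in Huh-7, 49.8 and 27.0 in Ako-3, and 52.0 and 29.2 in Mko-3. RBPJ was at 15.8 ± 0.983 FPKM (SD, n = 3) in Huh-7, 14.7 ± 0.814 in Ako-3 and 15.0 ± 0.885 in Mko-3, with log2 fold changes of -0.11 (95% CI -0.25 to 0.03) and -0.09 (95% CI -0.23 to 0.05). SNW1, its coactivator, was at 18.4, 18.8 and 19.9 FPKM on average. A further pair was named after values were seen, and some uncalled genes of other lists changed more. KAT2B, an acetyltransferase coactivator, was at 0.53 on the log2 scale in Ako-3 (SE 0.13, adjusted p = 0.0026), -0.17 in Mko-3 (SE 0.15, adjusted p = 0.34) and -0.70 between the clones (SE 0.13, adjusted p = 3.8e-06). ADAM17, a protease that can cut the receptor, was at 0.46 in Mko-3 (SE 0.08, adjusted p = 3.9e-05), 0.10 in Ako-3 (SE 0.08, adjusted p = 0.28) and 0.35 between the clones (SE 0.07, adjusted p = 6.1e-06).

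Of 16 corepressors, 1 was called by edgeR in Ako-3, beside 8.52% of all genes. In Mko-3, 0 were called, beside 11.0%, and 13 had an unadjusted p under 0.05. The adjusted p alone passed 68.8% of the 16 in Mko-3, beside 54.0% of all genes. BEND6, an RBPJ corepressor, had 26, 16 and 28 counts in Huh-7 and 14, 8 and 7 in Ako-3, and fell there at -1.29 on the log2 scale (SE 0.40, adjusted p = 0.0099), a call not made by DESeq2 (adjusted p = 0.052) nor without replicate 3 of Huh-7, replicate 2 of Ako-3 or replicate 3 of Ako-3. HDAC1, a histone deacetylase, was at 24.1 ± 1.89 FPKM (SD, n = 3) in Huh-7, 34.5 ± 0.731 in Ako-3 and 45.1 ± 1.29 in Mko-3, with log2 fold changes of 0.52 (SE 0.07, adjusted p = 2.7e-06) and 0.89 (SE 0.07, adjusted p = 5.2e-10), below the fold threshold. TLE1, the Groucho corepressor recruited by HES proteins, was at 65.2 ± 4.64, 50.4 ± 1.31 and 59.5 ± 1.17 FPKM. Among negative regulators edgeR called none of 13 in any comparison (2, 6 and 5 at an unadjusted p under 0.05 in Ako-3, in Mko-3 and between the clones). The shares of all genes called were 8.52%, 11.0% and 5.73%. The most abundant were ITCH, a ubiquitin ligase for Notch, and SEL1L, an adaptor for protein degradation. They averaged 21.1 and 14.8 FPKM in Huh-7, 19.6 and 15.2 in Ako-3, and 17.7 and 16.8 in Mko-3.

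**Figure D4:**
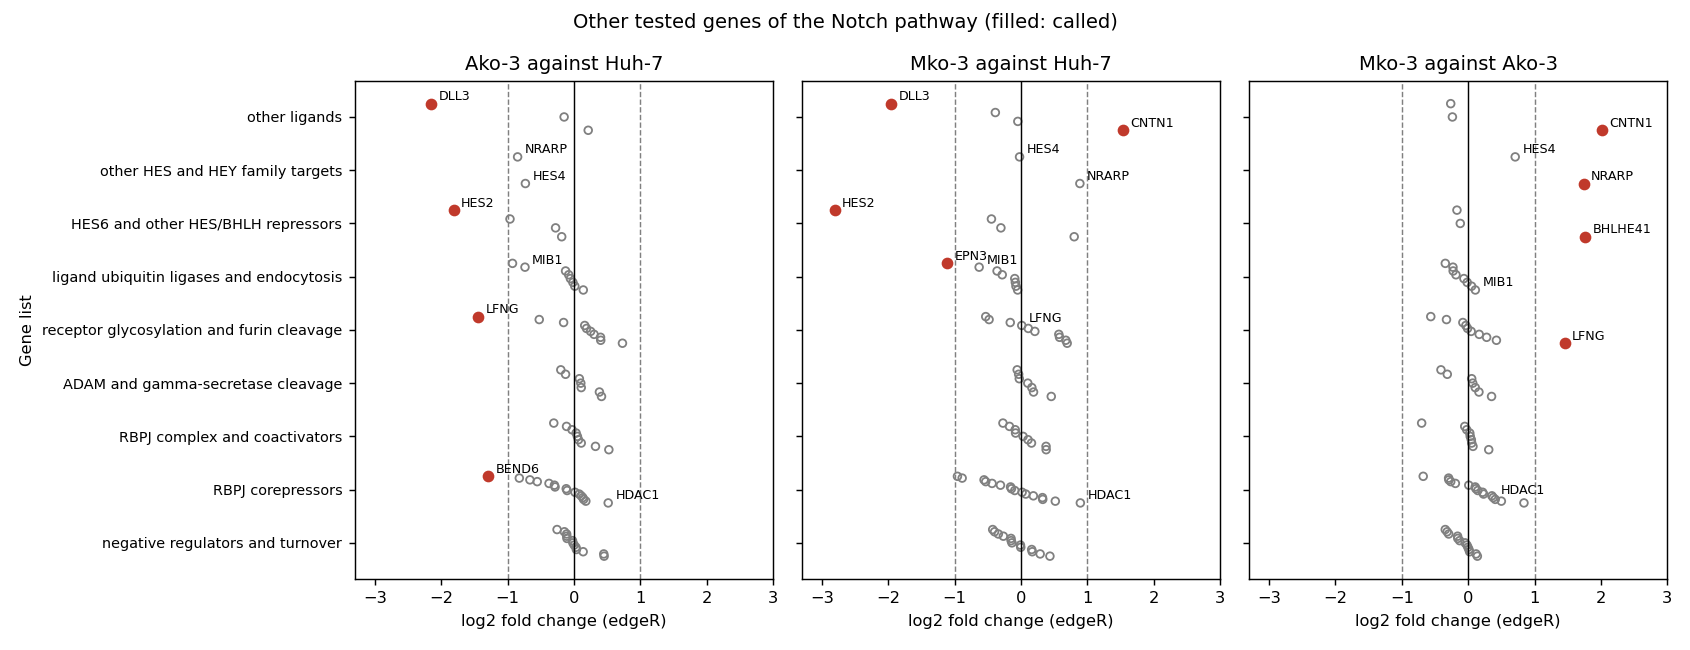
Log2 fold changes from edgeR (x axes) of the tested pathway genes outside the 10 members, by list (y axis), for the 3 comparisons. Filled red points are called genes and open points are not, and dashed lines mark a log2 fold change of 1 in either direction. DLL3 and HES2 are called lower in both clones, LFNG and BEND6 in Ako-3 and EPN3 in Mko-3, and CNTN1, NRARP, BHLHE41 and LFNG are higher in Mko-3 than in Ako-3.

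Other genes followed the leading member of each role across the 9 libraries. By Pearson's r of log2(FPKM + 1) among 12516 genes with a mean of at least 1 FPKM, those most like JAG1 were TXLNG (0.994), SLC7A5 (0.994) and EPHA2 (0.989). SLC7A5, an amino acid transporter subunit, averaged 75.1 FPKM in Huh-7, 38.2 in Ako-3 and 67.2 in Mko-3, and EPHA2, an ephrin receptor, 58.4, 28.3 and 57.4 FPKM. The genes most like HES1 were JUNB (0.991), JUN (0.989) and SLC3A2 (0.986). JUN, a subunit of the AP-1 transcription factor, averaged 108 FPKM in Huh-7, 44.6 in Ako-3 and 62.2 in Mko-3, and its relative JUNB 31.5, 15.4 and 21.0 FPKM. All these genes were picked for their likeness to a member, so a shared order of groups follows from the choice. For NOTCH2 they were KIAA1671 (0.983), USP24 (0.983) and TTC17 (0.977). These values describe 3 group levels and the libraries within them, share each library's scaling, and carry no p.

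Because NOTCH3 was so low in Mko-3, the genes around it were examined, a choice made after its value was seen. Of 11 tested genes with a start within 500 kb of the NOTCH3 start, 2 were higher and 9 lower in Mko-3 than in Huh-7, and 5 of these were called lower, beside 7.22% of all genes tested. The 11 log2 fold changes ran from -1.84 to 0.70 with a median of -0.62. The nearest gene, ILVBL at 75.2 kb, had a log2 fold change of -0.22 (SE 0.07). The second nearest, SYDE1 at 93.6 kb, stood at 0.70 (SE 0.08) in Mko-3 and 0.39 (SE 0.08) in Ako-3 and was not called. The called genes lay farther off, from AC006128.1 at -198 kb (-1.84, SE 0.28) to PGLYRP2, which encodes a liver amidase that cleaves peptidoglycan (-1.79, SE 0.33), the pseudogene CYP4F23P (-1.23, SE 0.43), and CYP4F3 and CYP4F12, fatty acid hydroxylases (-1.35 and -1.30, SE 0.08 each). In Ako-3 edgeR called none of the 11 (6 at an unadjusted p under 0.05), with CYP4F12 at -0.90 (SE 0.08) and CYP4F3 at -0.53 (SE 0.08). Between the clones 3 of the 11 were called lower in Mko-3, beside 3.47% of all genes, namely PGLYRP2 (-1.71, SE 0.29), AC006128.1 (-1.02, SE 0.33) and CYP4F23P (-1.76, SE 0.40). The reads of the cytochrome genes may be split among close relatives in this cluster. Around JAG1, 4 genes were tested within the same distance and edgeR called none in any of the 3 comparisons (3, 2 and 2 at an unadjusted p under 0.05).

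**Figure D5:**
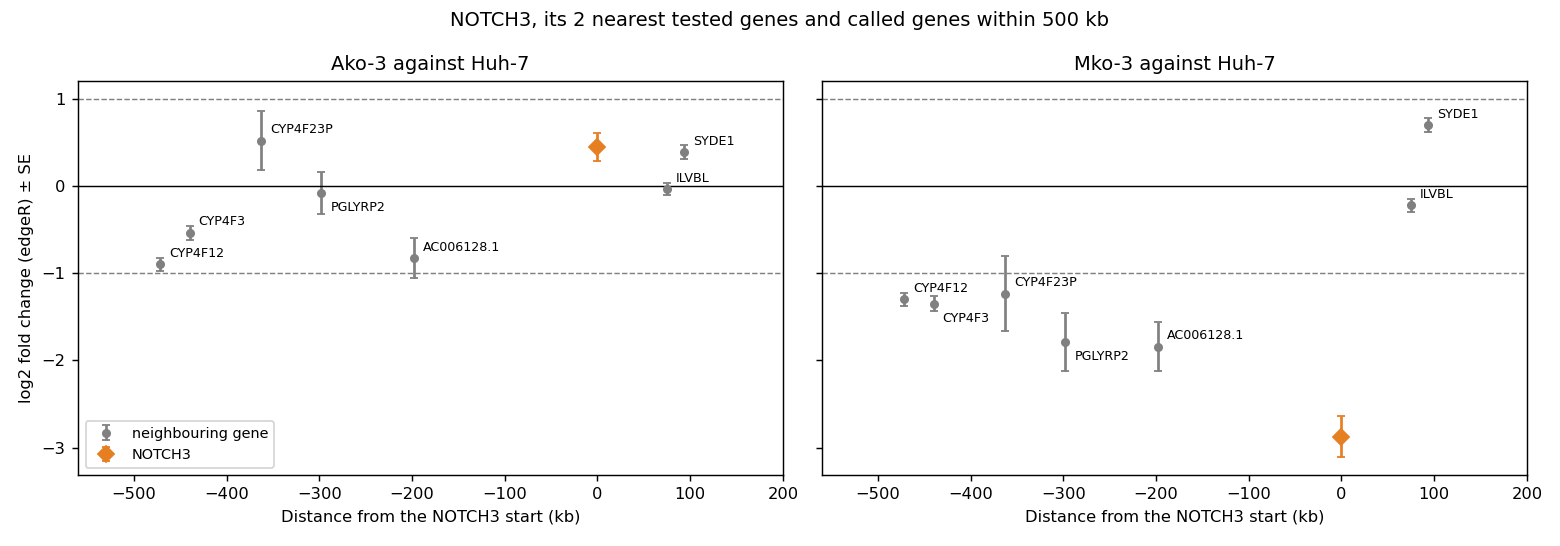
Log2 fold changes from edgeR with standard errors (y axes) of NOTCH3 (orange) and of 7 of the 11 tested genes within 500 kb of its start, the 2 nearest and the 5 called lower in Mko-3, by distance of their starts in kb (x axes), where positive distances lie in the direction of NOTCH3 transcription. The left plot shows Ako-3 and the right plot Mko-3, each against Huh-7. In Mko-3 NOTCH3 lies at -2.87, its nearest neighbours ILVBL at -0.22 and SYDE1 at 0.70, and the 5 called genes at -1.23 to -1.84.

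The 10 hepatocyte markers summed to 5198 to 5367 FPKM in Huh-7, 6190 to 6468 in Ako-3 and 5114 to 5356 in Mko-3, so that Ako-3 stood above Huh-7 without overlap. By the adjusted p alone 8 of them were higher in Ako-3, beside 25.5% of all genes. APOA2, an apolipoprotein, rose there by 1.02 on the log2 scale (SE 0.06), and TTR, encoding transthyretin, at 0.90 (SE 0.07) and HNF4A, a hepatocyte transcription factor, at 0.70 (SE 0.06) were not called. ALB at 0.02 and FGB at -0.13 did not pass the adjusted p. In Mko-3, 3 markers passed it as higher (AFP 0.80, TTR 0.60, HNF4A 0.30) and 3 as lower (ALB -0.49, FGA -0.45, APOA1 -0.43). The shares of all genes were 26.9% and 27.1%. Between the clones 2 were higher and 8 lower in Mko-3 by this measure, beside 21.1% and 20.6%. The hepatocyte sum moved with the lower JAG1 and HES1 of Ako-3, and its part in those values was not tested. Markers of other cell types that use the pathway were present to different degrees. Of 10 biliary markers, 7 exceeded 1 FPKM in Huh-7 and Ako-3 and 8 in Mko-3, KRT7 was at 0 in every library, and their summed FPKM was 314 to 321 in Huh-7, 318 to 343 in Ako-3 and 430 to 435 in Mko-3. In Mko-3, KRT19 rose with a log2 fold change of 2.92 (SE 0.09), SPP1, encoding osteopontin, with 2.89 (SE 0.26) and EPCAM with 1.17 (SE 0.07). In Ako-3, KRT19 was at 0.50 (SE 0.12) and EPCAM at 0.66 (SE 0.08), both without a call. SOX9, a biliary transcription factor and reported Notch target, was at -0.45 (SE 0.07) in Ako-3 and -0.41 (SE 0.06) in Mko-3 and was not called. The adjusted p alone passed 3 tested biliary markers as higher and 1 as lower in Ako-3, and 6 and 1 in Mko-3. The shares of all genes were 25.5% and 24.4% in Ako-3, and 26.9% and 27.1% in Mko-3. Of 10 endothelial markers, KDR, TEK, ERG and EMCN were at 0 in every library, and the sum, mostly PECAM1, was 10.0 to 11.5 FPKM in Huh-7, 13.9 to 15.0 in Ako-3 and 7.67 to 8.45 in Mko-3. The 10 fibroblast and stellate markers summed to at most 2.43 FPKM. Of these COL1A2, a type I collagen chain, fell in both clones, with log2 fold changes of -3.12 (SE 0.50) and -3.10 (SE 0.34). Of 8 immune markers CD14 and LYZ alone exceeded 1 FPKM, and the sum was 150 to 163 FPKM in Huh-7, 186 to 203 in Ako-3 and 188 to 202 in Mko-3, both clones above Huh-7 without overlap. CD14 was at 0.80 (SE 0.15) in Ako-3 and 0.29 (SE 0.17) in Mko-3, and LYZ at 0.27 (SE 0.06) and 0.29 (SE 0.06), without a call. Between the clones PECAM1 at -1.05 (SE 0.06) and COL3A1 at -1.75 (SE 0.43) were called lower in Mko-3. The other tested endothelial markers went the other way without a call, CDH5 at 0.61 (SE 0.17) and ESAM at 0.96 (SE 0.45). Relative to Huh-7, PECAM1 was at -0.61 (SE 0.07) in Mko-3, CDH5 at 0.31 (SE 0.19) and ESAM at 0.74 (SE 0.47). The biliary sum was higher and the endothelial sum, mostly PECAM1, lower alongside the low NOTCH3 of Mko-3. The immune sum moved with the values of both clones. The part of these sums in those results was not tested.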

How the data were processed

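Poly(A) mRNA of 9 libraries was sequenced as read pairs. Per the labels and the submitters' processing notes, reads were aligned with HISAT2 2.0.5 and counted per gene with featureCounts 1.5.0-p3; the coordinates in the deposited tables are those of hg38, although the notes also list an older build. The authors deposited raw counts per gene and FPKM values; recomputing them showed that the deposited FPKM are counts over gene length, scaled in each library in proportion to DESeq2's size factor. The strand setting of the counting is not given in the sources used here. Columns not used numbered 0.

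The 10 members and all lists were chosen with earlier results of these data known. Counts were fitted in R 4.3.3 with edgeR 4.0.16 (limma 3.58.1; TMM scaling, filterByExpr with a minimum count of 10, robust quasi-likelihood fit), on the 6 libraries of each pair of groups, without covariates, and p-values were adjusted by Benjamini-Hochberg over all genes tested. DESeq2 1.42.0 was an alternative, as were its size factors, no filter, a stricter filter, a joint fit, a replicate block, the adjusted p alone and leaving out each library. The study's own test was DESeq2. The procedure was tested on simulated counts. Levels are FPKM, with SD over 3 libraries. The labels call the libraries biological replicates, so p-values measure the spread between cultures of 1 clone or line. Intervals are 95% and come from the model. Genes named by rule outside the members were those called in any comparison and the 2 most abundant of each list. Every NOTCH2 copy in the files and the 3 genes most like the leading receptor, ligand and target were named too. KAT2B and ADAM17, the neighbours of NOTCH3 and of NOTCH1, and the ratios between members were chosen after values were seen. Promoters are RefSeq's, for GRCh38.p14.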

Additional observations from a re-analysis of the deposited data

Results flagged for a closer look

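The clones were compared directly, so that a difference in response is a test between Mko-3 and Ako-3 and not a call in one and none in the other. By edgeR's quasi-likelihood test, 4 of the 71 tested pathway genes that are not members differed between the clones at both thresholds. This is 5.63%, beside 5.73% of all genes, so nothing is read from the count. CNTN1 differed by a log2 fold change of 2.02, NRARP by 1.74, BHLHE41 by 1.76 and LFNG by 1.46, all higher in Mko-3. For each of them 3 of 3 Mko-3 libraries lay above all Ako-3 libraries. The FPKM of 49.8% of all genes tested did not overlap between the clones. CNTN1 passed the filter on low counts only through Mko-3, where it was high. CNTN1 and BHLHE41 rest on at most 32 counts per library. NOTCH3, which is a member and therefore given without a p, differed by -3.33, with every Mko-3 library below every Ako-3 library. The directions relative to Huh-7 were opposite for NOTCH3 (0.45 in Ako-3 and -2.87 in Mko-3), NRARP (-0.85 and 0.89) and BHLHE41 (-0.96 and 0.80). Both BHLHE41 values missed the adjusted p threshold. LFNG was at -1.44 in Ako-3 and 0.01 in Mko-3. All these paired values share the control libraries.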

How the results depend on the processing

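Counts of calls and the log2 fold changes of the members and of the called pathway genes were recomputed with DESeq2's size factors, without a count filter, with at least 10 counts in every library, with DESeq2, in a joint fit of 9 libraries, with a replicate block, by the adjusted p alone (counts only) and without each library in turn. The FPKM levels of the members were recomputed with TMM library sizes alone, and the values of the other named genes, markers and neighbours under no other setting. With at least 10 counts in every library, called genes numbered 841 in Ako-3, 1113 in Mko-3 and 511 between the clones, and pathway genes 1, 1 and 2, since fewer genes were tested. By the adjusted p alone they were 7880, 8509 and 6462, pathway genes 30, 34 and 36, and members 5, 3 and 6. Without the filter and with DESeq2, 2 members were called in Ako-3 (DLL4, JAG2) and 2 in Mko-3 (NOTCH3, JAG2), as JAG2 was then tested; without the filter 7 pathway genes were called in Mko-3. Leaving out single libraries gave 0 to 2 members and 3 to 7 pathway genes in Ako-3, and 1 to 2 and 3 to 6 in Mko-3; the 0 came without replicate 1 of Huh-7, the 7 without replicate 2 of Huh-7, and the 6 without replicate 2 of Huh-7 and without replicate 1 or 3 of Mko-3. The count of members between the clones did not change under any left-out library (1). Replicate numbers did not pair the libraries (correlations of same-numbered deviations from -0.14 to 0.11 over 14330 genes); with the replicate block 0 members were called in Ako-3, where DLL4 was at -0.99, and 1 in Mko-3.

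NOTCH1 in Ako-3 changed sign to 0.011 without the filter and ranged from -0.056 to 0.021 without single libraries. Under the same exclusions HEY1 in Ako-3 ranged from -0.11 to 0.037, highest without replicate 3 of Huh-7, and DLL4 in Mko-3 from -0.56 to 0.020, highest without replicate 1 of Huh-7. The cause of these changes of sign was not tested. Over single left-out libraries JAG1 in Ako-3 ranged from -0.99 to -0.93, HES1 in Ako-3 from -0.98 to -0.86 and NOTCH3 in Mko-3 from -3.16 to -2.65. All 30 FPKM levels moved by less than 1 SD with TMM library sizes. Depth limits NOTCH4, JAG2 and DLL1, for which the filtered fit gave no test. Calls of DLL3, HES2, CNTN1 and BHLHE41 rest on at most 32 counts per library. CNTN1 was tested only in comparisons with Mko-3, and DLL3 and HES2 only in those with Huh-7, the groups where they were high.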

Other observations

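NALT1, an antisense gene (chr9:136546212-136549893, plus strand, hg38) whose start lies at -426 bases from the NOTCH1 start, on the other strand, moved apart from NOTCH1. It was singled out after its values were seen, from 34 tested genes with a start within 500 kb of the NOTCH1 start. Of these, 0 were called higher and 2 lower in each clone relative to Huh-7. The shares of all genes called lower were 5.00% in Ako-3 and 7.22% in Mko-3. GPSM1, the other called gene, was at -2.74 (SE 0.43) in Ako-3 and -1.98 (SE 0.35) in Mko-3. NALT1 had 66, 53 and 50 counts in Huh-7, 20, 26 and 28 in Ako-3, and 11, 8 and 7 in Mko-3, and no group overlapped another. In edgeR's quasi-likelihood test NALT1 had log2 fold changes of -1.24 (SE 0.25, adjusted p = 0.00035) in Ako-3, -2.66 (SE 0.31, adjusted p = 3.4e-07) in Mko-3 and -1.42 (SE 0.39, adjusted p = 0.0021) between the clones, lower in Mko-3. NOTCH1 itself was at -0.01 and 0.37 in the clones relative to Huh-7.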
